A study of Drosophila melanogaster with 6 samples.

Results

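The Imd chain was followed here through 10 genes that carry the signal inside the cell: the adaptors imd and Fadd, the caspase Dredd, the ubiquitin ligase Diap2, the kinase module of Tak1 and Tab2, the IκB kinase complex of key and IKKbeta, the NF-κB factor Rel and the inhibitor pirk. The members were taken by name, with earlier results of these data known, and each was found by its FlyBase symbol among the 17559 gene identifiers of the count files. The libraries were polyA RNA from whole Drosophila melanogaster embryos aged 20 to 22 hours, shortly before hatching, with 100 embryos pooled per sample. The lola-O group (n = 3) carried the lola-O allele, which the labels call a knockout of isoform O of the transcription factor gene lola, over the deficiency Df(2R)ED2076. In the control group (n = 3) the same deficiency stood over a wild-type chromosome, so both groups lacked 1 copy of whatever Df(2R)ED2076 removes. The sample texts name no parental lines and do not tell whether replicate samples were separate crosses or collections, so a p-value here speaks only of variation among these libraries, part of which may be technical. The protocol text names mutant embryos for all 6 samples, and the groups were therefore taken from the titles and genotypes.

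In the fat body and gut of flies the Imd pathway answers peptidoglycan of the DAP type, found in most Gram-negative bacteria. Peptidoglycan recognition proteins of the PGRP family bind the ligand and gather imd, Fadd and Dredd into a complex; Dredd cuts Imd, Diap2 then builds ubiquitin chains on it, and these chains recruit the Tak1 kinase through Tab2. Tak1 activates the IκB kinase, and Relish, the product of Rel, is phosphorylated and cleaved so that its DNA-binding part enters the nucleus. pirk is a target of Relish that in turn blocks the receptor complex, and so acts as a feedback brake.

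Total counts ranged from 16217213 to 22759638 per library. Mutant 1 and control 3 stood somewhat apart from the other libraries of their groups: for genes with 100 counts or more in a pair, the chi-square per degree of freedom ran from 4.04 to 6.14 in pairs that included one of them and was 2.00 and 1.94 in the remaining pairs. The share of mitochondrially encoded counts was 15.95% and 16.21% in these 2 libraries and 17.30% to 18.10% in the other 4. Without both libraries, pirk, Tab2 and Rel were again the members that passed. Neuron markers (5 genes) summed to 1240 to 1312 CPM, counts scaled to a common library size after TMM normalization, in the lola-O libraries and to 1347 to 1380 CPM in the controls. Muscle markers (5 genes) summed to 23614 to 24064 CPM with lola-O and 27040 to 27307 CPM in the controls. Neither sum overlapped between the groups, a separation that 47.8% of all tested genes also showed. The median log2 fold change, lola-O over control, was -0.16 for the neuron and -0.20 for the muscle markers. A correction for transcript length, described below, gave medians of 0.014 and -0.063. Of 6 chorion genes 3 had no counts and the others at most 10 in a library, and the yolk protein genes Yp1, Yp2 and Yp3 had at most 11 counts in a library.

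All 10 members passed the low-count filter, and 3 of them differed between the groups. pirk rose 1.41-fold in the lola-O embryos, Tab2 fell to 0.837 and Rel to 0.902 of the control level, and the adaptors, the caspase, the ubiquitin ligase, Tak1 and both IκB kinase subunits did not pass the test. Across all 10312 tested genes, 39.7% passed edgeR's quasi-likelihood test at an adjusted p below 0.05, 20.2% higher and 19.5% lower in the mutants. A count of 3 in 10 is therefore close to the background of the comparison, as are 1 higher and 2 lower. The median log2 fold change of the 10 members was -0.0068, beside 0.0010 for all tested genes, and 5 members had positive and 5 negative values. The median size of the change, without its sign, was 0.12 on the log2 scale for the members and 0.14 for all tested genes. The CPM of the 10 members summed to 381 ± 8.68 in the mutants and 388 ± 4.91 in the controls (SD, n = 3 each), and these sums overlapped between the groups. In RNA from whole embryos, fewer cells of a type and less RNA per cell cannot be told apart.

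**Figure D1:**
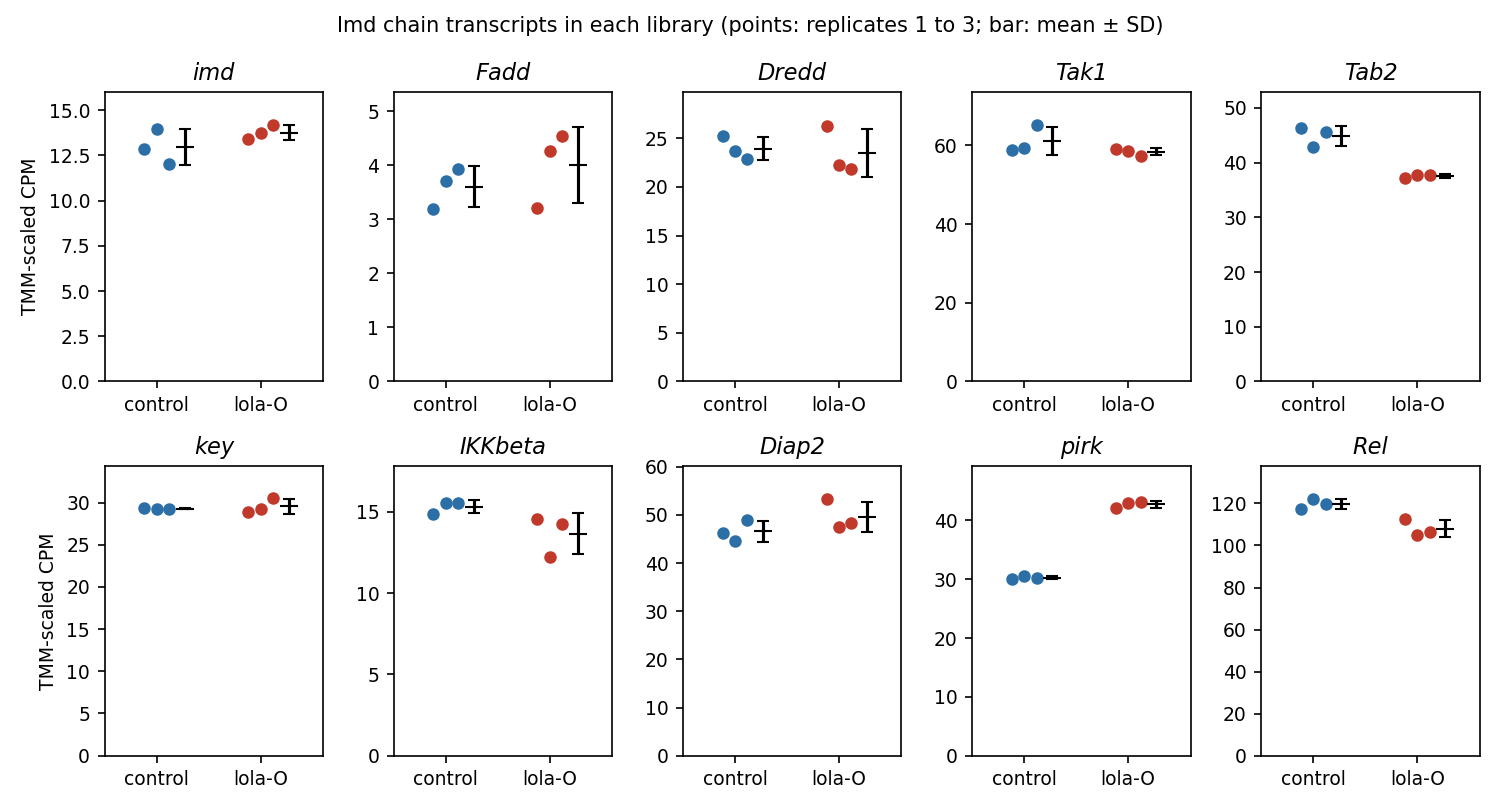
TMM-scaled CPM of each member in the 3 control (blue) and 3 lola-O libraries (red), each panel with its own vertical axis from 0; black bars give the mean and SD of a group. The lola-O points of pirk, between 42.1 and 43.0 CPM, all lie above its control points, and those of Tab2 and Rel all lie below theirs.

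Per length of exon, the transcripts of the chain covered a range of 11.0-fold in the controls. Rel was the most abundant, with 34.2 ± 0.653 CPM per kb of merged exons in the controls and 30.8 ± 1.13 in the mutants (SD, n = 3 each), and Fadd the least, with 3.10 ± 0.324 and 3.44 ± 0.606 CPM per kb. In the controls the order ran from Rel through Diap2 (21.8), key (20.6), pirk (16.4), Tak1 (15.5), Dredd (14.0), Tab2 (11.3), imd (8.53) and IKKbeta (6.16) to Fadd, all in mean CPM per kb. Of the neighbours in that order, only pirk and Tak1 overlapped across control libraries. In the mutants pirk stood at 23.1 ± 0.296 CPM per kb (SD, n = 3), within the range of Diap2 (22.2 to 24.9) and above key at 20.8; the rest kept their order, and the mutant values of Tak1 and Dredd overlapped. The place of pirk in the controls depended on the length used: with the longest transcript in place of the merged exons, Tak1 came to 18.05 CPM per kb and stood above pirk.

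**Figure D2:**
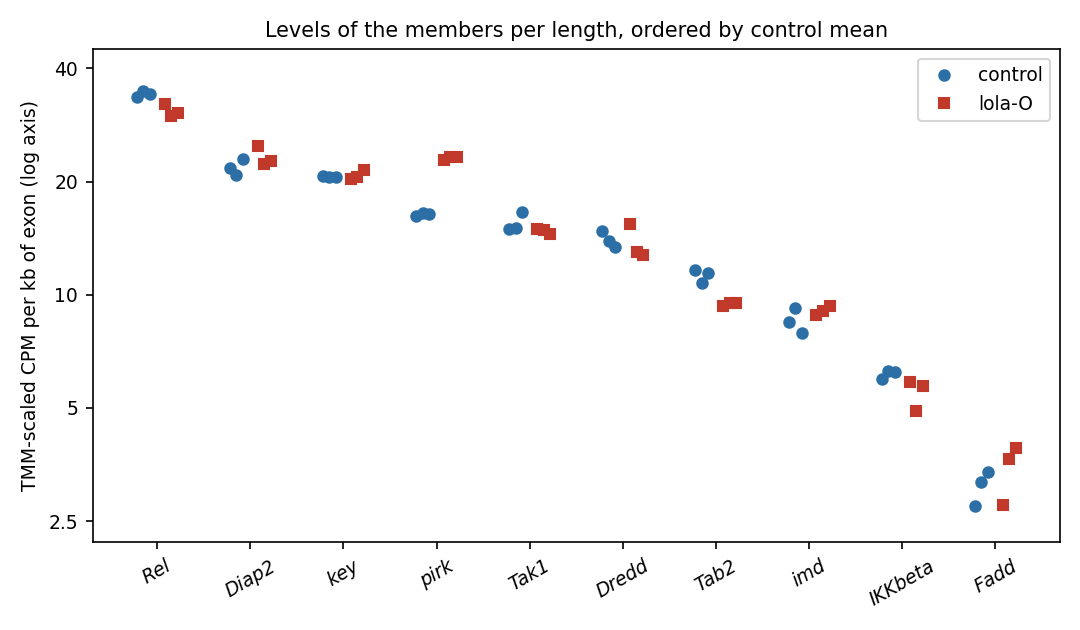
CPM per kb of merged exon on a log axis for each member, ordered by the control mean, with control libraries as blue circles and lola-O libraries as red squares. The members span 3.10 (Fadd) to 34.2 (Rel) CPM per kb in the controls, and pirk moves from 16.4 to 23.1.

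The receptor-proximal adaptors came first in the chain. imd (FBgn0013983, 2R, 18409796 to 18413599 on the minus strand of BDGP6.54), a death-domain protein related to mammalian RIP kinases, had 13.4, 13.7 and 14.2 CPM in lola-O libraries 1 to 3 and 12.9, 14.0 and 12.01 CPM in controls 1 to 3. The control values bracketed most of the mutant values. The log2 fold change was 0.082 (SE 0.084, edgeR adjusted p = 0.472), with a 95% interval from -0.087 to 0.25. Fadd (FBgn0038928, 3R, 22034455 to 22035617), which links Imd to Dredd through a death effector domain, had 3.21, 4.26 and 4.55 CPM in the lola-O libraries and 3.19, 3.70 and 3.93 CPM in the controls. These rest on 63 to 92 counts per library, the lowest of the 10 members, and the groups overlapped. The log2 fold change was 0.15 (SE 0.16, edgeR adjusted p = 0.487) with a 95% interval from -0.17 to 0.47, the widest of the 10.

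Dredd and Diap2 make and mark the cut form of Imd. Dredd (FBgn0020381, X, 633622 to 635545), the caspase that cleaves both Imd and Relish, had 26.3, 22.2 and 21.8 CPM in the lola-O libraries and 25.2, 23.7 and 22.8 CPM in the controls. Mutant 1 was above all controls and mutants 2 and 3 below all of them, and the log2 fold change was -0.028 (SE 0.068, edgeR adjusted p = 0.780). Diap2 (FBgn0015247, 2R, 15932170 to 15934825), an inhibitor-of-apoptosis protein with a RING ubiquitin ligase domain, had 53.2, 47.4 and 48.4 CPM in the lola-O libraries and 46.3, 44.5 and 48.9 CPM in the controls. The groups overlapped at control 3. The log2 fold change was 0.098 (SE 0.050, edgeR adjusted p = 0.115); without control 3 it was 0.13 and passed (edgeR adjusted p = 0.0376), and without mutant 1 it was 0.044 (edgeR adjusted p = 0.590).

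In the Tak1 module the ubiquitin-binding subunit fell. Tab2 (FBgn0086358, 2R, 19292529 to 19304508), which tethers Tak1 to ubiquitin chains, had 37.2, 37.8 and 37.7 CPM in the lola-O libraries and 46.4, 42.9 and 45.6 CPM in the controls. The raw counts were 731, 604 and 764 in the mutants and 1002, 972 and 812 in the controls. All 3 mutants were below all 3 controls, a separation that 4 of the 10 members and 47.8% of all tested genes showed in one direction or the other. Tab2 fell, with a log2 value of -0.26 (SE 0.051, edgeR adjusted p = 3.06e-05). Tak1 itself (FBgn0026323, X, 20515908 to 20524928), the MAP3 kinase at which the path divides toward Relish and toward JNK, had 59.1, 58.7 and 57.4 CPM in the lola-O libraries and 58.9, 59.4 and 65.3 CPM in the controls. Control 1 lay among the mutants, control 2 just above them and control 3 well above, and the log2 fold change was -0.064 (SE 0.045, edgeR adjusted p = 0.265). Within each library, the level of Tab2 per unit of Tak1, both per kb, was 0.624, 0.639 and 0.652 in the mutants and 0.780, 0.715 and 0.691 in the controls. No library scaling enters this ratio, and its values did not overlap between the groups. The ratio follows from the values of Tab2 and Tak1 given above and is no separate test.

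The IκB kinase subunits did not pass. key (FBgn0041205, 2R, 24785514 to 24787411), the regulatory subunit known in mammals as NEMO, had 28.9, 29.2 and 30.5 CPM in the lola-O libraries and 29.3, 29.2 and 29.2 CPM in the controls. Its log2 fold change was 0.015 (SE 0.058, edgeR adjusted p = 0.870) with a 95% interval from -0.10 to 0.13. IKKbeta (FBgn0024222, 3R, 16046347 to 16049421), the catalytic subunit, had 14.6, 12.2 and 14.2 CPM in the lola-O libraries and 14.9, 15.6 and 15.5 CPM in the controls. The groups did not overlap, but mutant 1 and control 1 lay close together and mutant 2 was the lowest library. The log2 fold change was -0.16 (SE 0.082) and did not pass (edgeR adjusted p = 0.127), with a 95% interval from -0.32 to 0.0074. The ratio of key to IKKbeta per kb was 3.47, 4.19 and 3.76 in the mutants and 3.46, 3.29 and 3.29 in the controls, and mutant 1 and control 1 almost met.

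Rel and pirk, the transcription factor and one of its own targets, moved in opposite directions. Rel (FBgn0014018, 3R, 9044183 to 9047977) had 112, 104.9 and 107 CPM in the lola-O libraries and 117, 122 and 119.8 CPM in the controls, from 1675 to 2767 counts per library. Every mutant was below every control. Rel fell, with a log2 value of -0.15 (SE 0.036, edgeR adjusted p = 4.55e-04), which is 0.902 of the control level with a 95% interval from 0.859 to 0.948. The fall did not pass when tested against a change of at least 1.1-fold (edgeR glmTreat adjusted p = 0.432), a test that 17.0% of genes passed, pirk and Tab2 among them.

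pirk (FBgn0034647, 2R, 21660967 to 21662995), which binds the receptors PGRP-LC and PGRP-LE and Imd, had 42.1, 43.0 and 43.0 CPM in the lola-O libraries and 29.98, 30.5 and 30.2 CPM in the controls. The raw counts were 827, 687 and 871 in the mutants and 648, 691 and 539 in the controls, and the control with the highest raw count was also the deepest library. The CPM of the groups did not overlap, as was the case for 47.8% of all tested genes. The SDs were 0.546 and 0.243 CPM. They come from 3 libraries each and lie below the counting error of such counts, so they are no measure of replicate variation. pirk rose, with a log2 value of 0.50 (SE 0.053, edgeR adjusted p = 3.00e-12), or 1.41-fold with a 95% interval from 1.31 to 1.52. Of all tested genes, 6.99% had a larger change in either direction, and of the 2087 genes that were higher in the mutants, 13.0% rose by more.

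Set against imd and Rel in the same library, pirk gained on both. The level of pirk per unit of imd, per kb, was 2.59, 2.58 and 2.496 in the mutants and 1.92, 1.79 and 2.07 in the controls. Per unit of Rel it was 0.710, 0.777 and 0.766 in the mutants and 0.484, 0.473 and 0.479 in the controls. Neither ratio overlapped between the groups. Both follow from the values of the single genes given above and are no separate test. By contrast, Dredd per unit of Fadd overlapped, at 3.27 to 5.59 with lola-O and 3.96 to 5.38 in the controls, and so did Diap2 per unit of imd, at 2.43 to 2.83 and 2.27 to 2.90.

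**Figure D3:**
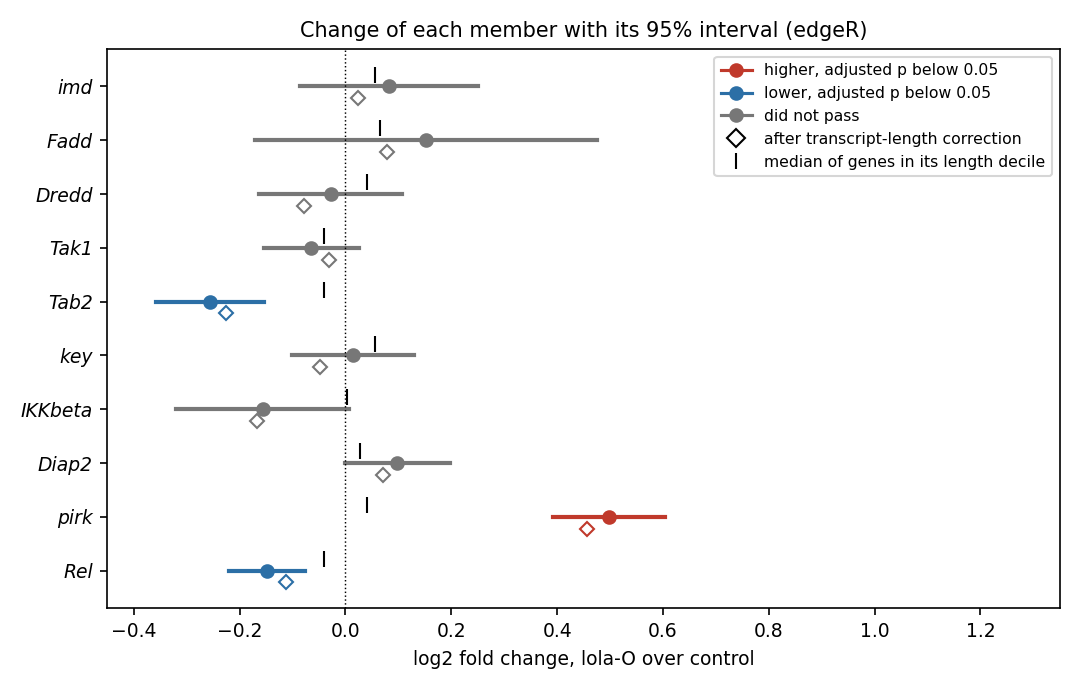
Log2 fold change of each member, lola-O over control, with its 95% interval from edgeR; open diamonds give the value after the transcript-length correction and black ticks the median of all genes in the same decile of transcript length. The intervals of pirk (0.39 to 0.60), Tab2 (-0.36 to -0.15) and Rel (-0.22 to -0.077) exclude 0.

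Fold changes in this comparison drift with transcript length, from a median log2 fold change of 0.097 in the decile of shortest transcripts to -0.14 in the longest, so each member was set beside genes of its own length. Tab2, Tak1 and Rel, with longest transcripts of 3305, 3391 and 3499 bases, share a decile whose median was -0.040. Tak1 at -0.064 lay near that median, while Tab2 and Rel lay 0.22 and 0.11 below it. pirk, at 1846 bases, lay 0.46 above the median of its decile, 0.042. When the trend with length was removed from every sample, the same 3 members passed: pirk at 0.46 (edgeR adjusted p = 1.26e-11), Tab2 at -0.23 (adjusted p = 1.94e-04) and Rel at -0.11 (adjusted p = 0.00783), in a fit in which 31.6% of genes passed. The value of key turned from 0.015 to -0.048 there, and neither passed.

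**Figure D4:**
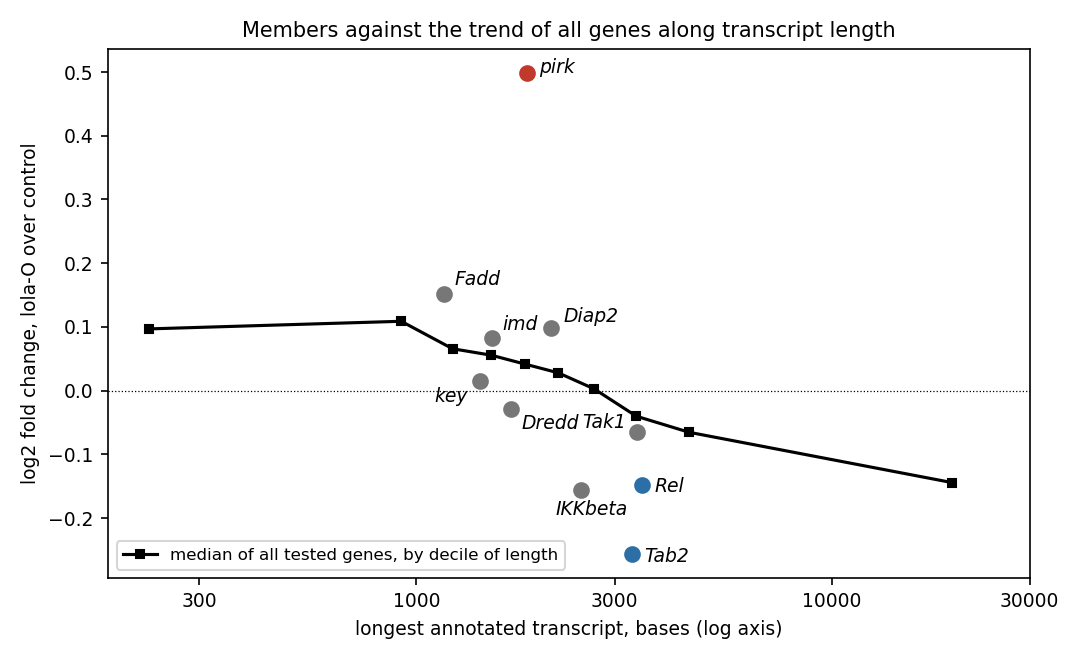
Log2 fold change, lola-O over control, of the 10 members against the length of the longest annotated transcript (log axis), with the median of all tested genes in each decile of length as a black line, drawn at the middle of the decile on the log axis. pirk at 0.50 stands above the line, and Tab2 at -0.26 and Rel at -0.15 below it.

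By position, 5 members lie on 2R, the chromosome arm that carries lola, 3 on 3R and 2 on the X. On 2R 1 member was higher and 1 lower, on 3R 1 was lower, and on the X none passed. The members on 2R start 5.42 to 14.27 Mb from the midpoint of lola. By the labels the groups share the Df(2R)ED2076 chromosome and differ in the other second chromosome, whose origin is not given. Sequence differences between the groups were not analysed here. The genes around the members that passed were looked at after those values were seen. Within 25 kb of the start of pirk, 9 other genes were tested, of which 2 were higher and 1 lower, with a median log2 fold change of -0.019. Around Tab2, 3 of 9 were higher and 1 lower (median 0.056), and around Rel 1 of 7 was higher and none lower (median 0.10). Over all tested genes 20.2% were higher and 19.5% lower. In BDGP6.54, no exon of pirk, Tab2, Tak1, Fadd or Rel overlaps an exon of another gene. imd shares 40 bases with GstE9 and key 29 bases with CG3589 on the opposite strand, Dredd 12 bases with Mybbp1A on the opposite strand and 61 bases with mir-9372 and 23 and 24 bases with 2 further non-coding entries on its own, Diap2 1 base with bug on the opposite strand, and IKKbeta 201 bases with lncRNA:CR45212 on its own strand, which had 4 to 11 counts. GstE9 did not pass, at -0.079 on the log2 scale (edgeR adjusted p = 0.303).

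Upstream of the chain, the PGRP genes moved in both directions. Of 13 PGRP genes, 11 were tested, 3 rose and 4 fell, beside 20.2% and 19.5% of all tested genes. The median of the 11 was -0.086 on the log2 scale. After the length correction 1 rose and 4 fell, and without control 2, 1 rose and 3 fell. The surface receptor gene PGRP-LC had 28.4 ± 0.558 CPM in the lola-O libraries and 31.5 ± 1.56 CPM in the controls (mean ± SD of 3), which is -0.15 on the log2 scale (edgeR adjusted p = 0.0309); without any single sample other than control 3 it did not pass, and DESeq2 gave an adjusted p of 0.110. PGRP-LE, the intracellular receptor gene, was at 0.020 and did not pass (edgeR adjusted p = 0.811). PGRP-LF, whose product dampens PGRP-LC, fell by 0.42. The amidase genes, whose products break peptidoglycan down, divided: PGRP-SC2 fell by 1.21 and PGRP-SC1a by 0.65, while PGRP-SB1 rose by 0.99 and PGRP-SC1b by 0.22. Without control 2 PGRP-SB1 was at 0.70 and did not pass (adjusted p = 0.0703), nor did PGRP-SC1b without mutant 1, at 0.16 (adjusted p = 0.0977), or after the length correction, also at 0.16 (adjusted p = 0.0536). PGRP-SC1a and PGRP-SC1b are close copies, so the split of reads between them is uncertain. PGRP-LB, a further amidase gene and, like pirk, a known target of Relish, rose by 0.12 (edgeR adjusted p = 0.0219) and did not pass after the length correction (adjusted p = 0.424) or with DESeq2 (adjusted p = 0.0843), and was lost without mutant 2, control 1 or control 2, with log2 values of 0.096 to 0.11.

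Among the enzymes that build or remove ubiquitin on the chain and its other modulators, 17 of the 20 listed genes were found and tested. Of these 17, 7 rose and 6 fell, beside 20.2% and 19.5% of all tested genes. The median of the 17 was 0.058 on the log2 scale. Uev1A, an E2 enzyme of the ubiquitin cascade, rose by 0.25 (edgeR adjusted p = 2.05e-08), and eff, another E2 enzyme, rose by 0.14. akirin, a nuclear cofactor of Relish, rose by 0.16, and SkpA, a subunit of a ligase that restrains Relish, by 0.16. Tg, the transglutaminase gene whose product cross-links Relish, fell by 0.33 (edgeR adjusted p = 4.75e-08). dnr1, an inhibitor of Dredd, fell by 0.30, and LUBEL, the ligase for linear ubiquitin chains, fell by 0.21. With 1 sample left out, 5 to 7 of the list rose and 5 to 6 fell, the calls lost being those of CYLD, scny and casp. After the length correction 8 rose and 3 fell; LUBEL, with a longest transcript of 9188 bases, was at -0.044 there and did not pass (adjusted p = 0.508).

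Of the JNK arm that branches off at Tak1, 11 of 11 genes were tested, none rose and 6 fell, beside 20.2% and 19.5% of all tested genes. The median of the arm was -0.091 on the log2 scale. The log2 fold change was -0.22 for slpr, a kinase parallel to Tak1, -0.22 and -0.14 for grnd and wgn, the receptors of the TNF ligand Eiger, -0.11 for kay, the fly Fos, -0.0997 for hep, which phosphorylates JNK, and -0.091 for msn. bsk, the JNK itself, was at 0.041 and its target puc at -0.023, and neither passed. After the length correction 1 rose and 2 fell, the values of hep and msn turned to 0.0062 and 0.031, and slpr and kay no longer passed. These calls also rested on single libraries: without mutant 1, 2 genes fell, and without control 3, 3 fell and 1 rose, while without mutant 2 it was 3 and without mutant 3, control 1 or control 2 it was 4. slpr alone fell in each of these 6 fits.

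The antimicrobial peptide genes that Relish switches on after infection were close to silent in both groups. The 14 genes found of the 15 listed (attacins, cecropins, diptericins, drosocin, defensin, metchnikowin and edin) had 32, 21 and 27 counts together in the mutants, and 17, 24 and 19 in the controls. These raw totals overlapped between the groups. Scaled to library size, the summed level was 1.32 to 1.63 CPM with lola-O and 0.787 to 1.07 CPM in the controls. These levels did not overlap, as was the case for 47.8% of all tested genes, and they rest on 17 to 32 counts per library. No gene passed the low-count filter or had more than 11 counts in a library, so none was tested. CecA2 and CecB had no counts at all, which allows up to 0.132 to 0.185 CPM per library. edin had 9, 4 and 11 counts in the mutants and 3, 7 and 2 in the controls, and DptB 5, 1 and 6 against 2, 0 and 0, too few reads for a test.

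The Toll chain, the other NF-κB pathway of flies, is given for comparison. All 14 listed genes were tested, 1 rose and 6 fell, beside 20.2% and 19.5% of all tested genes. The median of the Toll chain was -0.077 on the log2 scale. Its NF-κB genes Dif and dl fell by 0.38 and 0.30 and their inhibitor cact by 0.20, beside 0.15 for Rel; modSP and spz each fell by 0.25, and SPE, a protease that activates Spätzle, rose by 0.91. The adaptor and kinase genes of this chain, Myd88, tub and pll, had -0.092, 0.0075 and 0.11 and did not pass. After the length correction 1 gene of the Toll chain rose and 5 fell. Dif was at -0.31, dl at -0.21 and cact at -0.22 there, beside -0.11 for Rel.

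**Figure D5:**
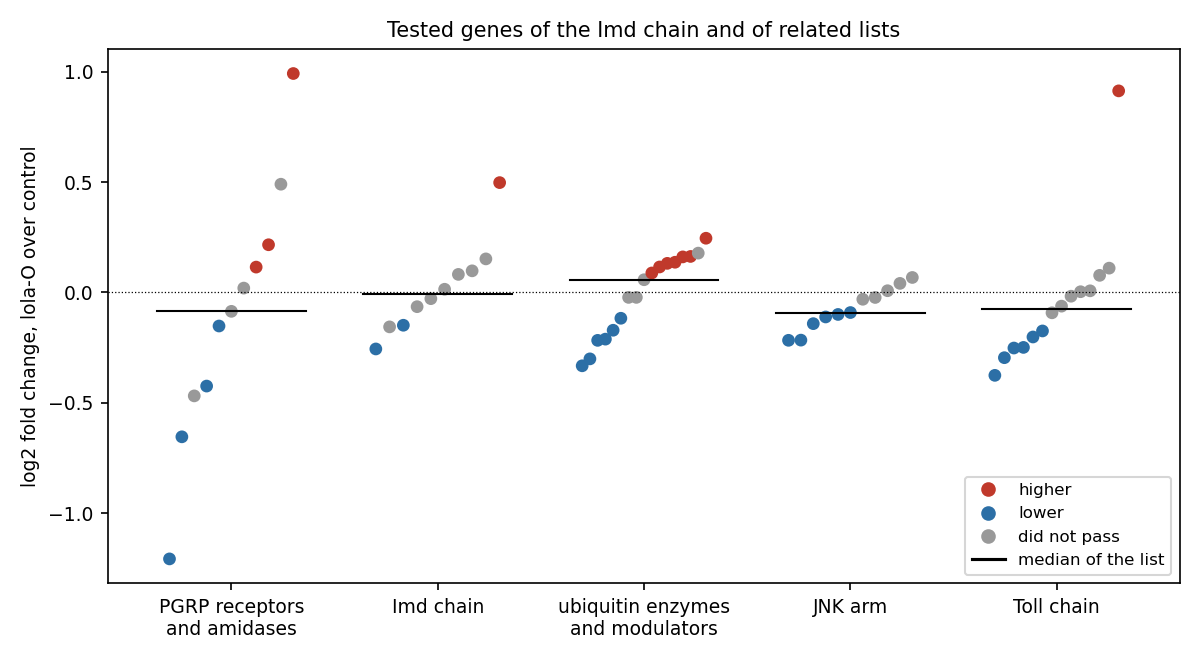
Log2 fold change, lola-O over control, of every tested gene of 5 lists, coloured by the edgeR call, with the list median as a black line. The Imd chain has 1 higher and 2 lower genes of 10, the JNK arm 6 lower of 11 and the Toll chain 1 higher and 6 lower of 14. Over all tested genes 20.2% were higher and 19.5% lower.

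Markers of blood cells, fat body, midgut, neurons and muscle moved as well, in a comparison where 20.2% of all tested genes rose and 19.5% fell. Of 10 plasmatocyte markers, 1 rose and 5 fell. NimC1 fell by 0.69, Hml by 0.27 and Sr-CI by 0.20, while crq rose by 0.18. After the length correction 1 plasmatocyte marker was higher and 3 were lower. Sr-CI was at -0.23 there (edgeR adjusted p = 6.35e-04), and Hml, at -0.067, did not pass. The summed level of the 10 plasmatocyte markers was 5261 to 5591 CPM in the lola-O libraries and 5331 to 5955 CPM in the controls. Most of it came from the collagen genes Col4a1 and vkg. Of 11 fat body markers, 5 were tested, 1 rose and 2 fell; Desat1 fell by 0.20 and apolpp fell by 0.14, although apolpp, a very long transcript, turned to 0.057 after the length correction, and Lsp1gamma rose from 4 to 6 counts per control library to 11 to 23 per mutant library. Their summed level was 4198 to 4372 CPM in the lola-O libraries and 4679 to 4724 CPM in the controls. Most of it came from apolpp, with means of 3438 CPM with lola-O and 3777 CPM in the controls. After the length correction 2 of the 5 tested fat body markers rose and 1 fell. The larval fat body genes Fbp1, Fbp2, Lsp2, Lsp1alpha and Lsp1beta had at most 4 counts in any library. Of 7 midgut markers, 4 rose and 2 fell, led by Mal-A1, which rose by 0.82, and alphaTry, which fell by 0.73; their summed level was 1268 to 1309 CPM in the lola-O libraries and 1213 to 1247 CPM in the controls. Of 5 neuron markers 4 fell, and of 5 muscle markers 4 fell and 1, up, rose. After the length correction 1 neuron marker was higher and 1 lower, and 1 muscle marker was higher and 3 lower; sls turned from -0.31 to 0.065 (adjusted p = 0.0315) and up, at 0.013, did not pass (adjusted p = 0.713). Of 3 crystal cell markers 1, peb, rose, while lz and PPO2 did not pass. The calls of Pxn and vkg among the plasmatocyte markers, of peb and of up were lost with some single samples left out; without control 2 or mutant 2, 3 plasmatocyte markers fell and 2 rose. The part of these shifts in the values of pirk, Tab2 and Rel was not tested.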

How the data were processed

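The authors deposited raw counts of reads for each FlyBase gene identifier, as whole numbers without normalization, in 1 file per sample. Build BDGP6 is named in the submitters' processing notes together with bedtools 2.25.0, SAMtools 1.3.1, Subread 1.5.1 and STAR 2.5.2b. What each tool did, which annotation release was used, whether strand was used in counting and how multi-mapped reads were handled is not given in the sources used here. Libraries were made with a kit that marks strand, per the labels. Symbols, positions and lengths came from Ensembl release 115 (BDGP6.54), which matched 17253 of 17559 identifiers.

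Counts were fitted with edgeR 4.0.16 in R 4.3.3: TMM scaling, filterByExpr, robust glmQLFit and glmQLFTest of lola-O against control, with Benjamini-Hochberg adjustment over all 10312 tested genes, 2-sided, and calls at an adjusted p below 0.05. Standard errors were taken as the log2 fold change over the root of its F statistic. Fold changes are lola-O over control, and CPM are TMM-scaled. The procedure was checked on simulated counts with 200 changed genes and no trend along transcript length. That setting was narrower than these data, in which 4093 genes passed.

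The alternatives were RLE and upper-quartile scaling, other low-count filters, DESeq2 1.42.0, voom from limma 3.58.1, a replicate block, leaving out samples, library sizes without mitochondrial genes, a test against 1.1-fold, and a transcript-length correction, in which a lowess trend (span 0.3) of each sample's log2 CPM deviation on log transcript length entered as an offset. The rule was to name all 10 members and, of each other list, up to 6 genes that passed with the smallest adjusted p. PGRP-LC, PGRP-LE and the antimicrobial genes were included whatever their result. Some genes within the rule are given no values above: Tl, bt, Mhc, Act57B, Syx1A, nSyb, Jon99Ci, betaTry, Amy-p and GATAe. Other genes were named after their values were seen. Members and lists were chosen with earlier results of these data known. The limit given for a count of 0 (3 counts) covers only counting error, because molecules were not tagged.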

Additional observations from a re-analysis of the deposited data

How the results depend on the processing

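The rise of pirk and the fall of Tab2 kept their direction and passed under all 18 other settings: pirk ranged from 0.46 to 0.51 and Tab2 from -0.29 to -0.23 on the log2 scale. Rel ranged from -0.18 to -0.11 and passed in all but the test against 1.1-fold. That test passed 1757 genes in place of 4093 and left 1 lower member, Tab2; a stricter null is built to pass fewer. Leaving out 1 sample gave 1 to 2 higher members, 2 being reached without control 3, where Diap2 passed, always 2 lower members, and 3481 to 3872 genes in all. Leaving out mutant 1 and control 3 together, a choice made after seeing the data, gave 3630 genes, 1 higher and 2 lower members.

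Members near 0 turned sign: Dredd, at -0.028, ranged from -0.12 to 0.029 with 1 sample left out and was -0.15 without mutant 1 and control 3, and key, at 0.015, ranged from -0.0089 to 0.033 and had -0.048 with the transcript-length correction and -0.0496 with that correction and the replicate block. Of 87 tested genes of the other lists, 18 turned sign with the correction, 8 of them called without it and 3 called with it. Those 3 are apolpp, sls and Jon65Aiii, the last from 0.018 to -0.072 (adjusted p = 0.0491). faf turned from -0.12 to 0.059. Among the genes chosen by the naming rule, the correction turned PGRP-LE to -0.0093, msn to 0.031, hep to 0.0062, apolpp to 0.057, vkg to 0.034, brp to 0.040, elav to 0.014 and sls to 0.065; with the block as well these were -0.0044, 0.0299, 0.0064, 0.0569, 0.036, 0.040, 0.013 and 0.065. With 1 sample left out PGRP-LE ranged from -0.0077 to 0.066, and it was -0.024 without mutant 1 and control 3. By construction the correction moves long transcripts up.

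The deviations of same-numbered samples from their group means correlated at 0.052, -0.023 and 0.070, and those of differently numbered samples at -0.106 to 0.072. With so few libraries these values cannot tell whether equal numbers mark a shared cross or collection. The replicate block passed 4077 genes and the same 3 members. Fadd, at 4 CPM, fell below the filter of 5 CPM and has no value there.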
